A study of Mus musculus with 3 samples.

Results

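Goblet cells labelled here as crypt goblet cells with Reg4 and Ccl9 were those of the mouse small intestine in which Ccl9, Reg4 and Fkbp11 stood highest. They were 619 of 12653 cells, and are called members below. The cells were chosen on their own expression values. In each library the 16% of cells with the highest summed values of Agr2, Fcgbp, Spink4, Tff3, Zg16 and Clca1 formed the goblet base. Base cells with 20 or more mitosis gene UMIs per 10000 (17 cells) or 1500 or more alpha-defensin UMIs per 10000 (37 cells) were dropped. A UMI is a tag that marks 1 captured RNA molecule. Over the 1969 base cells that were kept, the mean values of 3 panels were put on a z scale: panel A (Ccl9, Reg4, Fkbp11), panel B (Mptx1, Retnlb, Klk1) and panel C (Ido1, Tm4sf4, Gsta4). Members had panel A highest. The other 565 panel B cells and 785 panel C cells are called other goblet cells.

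Male ICR mice, an outbred stock, were 3 weeks old at the start of treatment, and after it their small intestine was taken apart into single cells after removal of the Peyer's patches, and the cells of 6 mice were pooled for each of 3 libraries of 3′ tags. AOS 0 received only the vehicle, water. B + A 0 received 1 injection of busulfan at 40 mg/kg and then water. B + A 10 received the same injection and then alginate oligosaccharide (AOS) at 10 mg/kg. Water or AOS was given by gavage each day for 2 weeks in all 3 groups. Busulfan is an alkylating chemotherapy drug that damages dividing cells, and AOS is a short polymer from brown algae. Where 3 values follow each other they are in the order AOS 0, then B + A 0, then B + A 10. With 1 library in each group there was no replicate, so no test was made, and every interval is an exact 95% interval for counting error only. A difference between libraries cannot be told apart from a difference between pools of mice or between preparations. One label went against the others. The source name of the B + A 0 library reads like an AOS library and that of the B + A 10 library like B + A 0, whereas title, description and treatment agreed, and these last 3 were followed.

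Goblet cells make and release the mucus that covers the gut lining. They arise in the crypts from progenitors in which Notch signalling is low and the transcription factor Atoh1 is on, and most move up onto the villus. Their main product, the mucin Muc2, enters the endoplasmic reticulum (ER), is folded there with many disulfide bonds, is sugar-coated in the Golgi and is stored in granules. Reg4, a secreted lectin-like protein, is known from deep crypt secretory cells of the colon and from enteroendocrine cells. Ccl9 is a CC chemokine, Fkbp11 is a prolyl isomerase of the ER, Pdia5 belongs to the protein disulfide isomerases of the ER, and Hpd is a dioxygenase of tyrosine breakdown.

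AOS 0 held 246 members, B + A 0 held 140 and B + A 10 held 233. Their share of the kept base cells was 38.4% (34.7 to 42.3, binomial interval) in the AOS 0 library, 28% (24.1 to 32.2) with busulfan alone and 28.1% (25.1 to 31.3) with busulfan and AOS. As a share of all cells of the library they were 5.99%, 4.38% and 4.35%. Because the rule fixed the base at 16% of every library, the share says nothing of how many goblet cells there were. The AOS 0 share lay above the intervals of both busulfan libraries, but with panel scores standardized within each library the shares were 34.5%, 31.8% and 30.3%. Members had a median of 7953.5, 6331.5 and 3790 UMIs per cell, so the B + A 10 library was the shallowest. No cell barcode was shared between members of different libraries, against 17 to 34 shared barcodes over all cells of each pair of libraries.

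**Figure D1:**
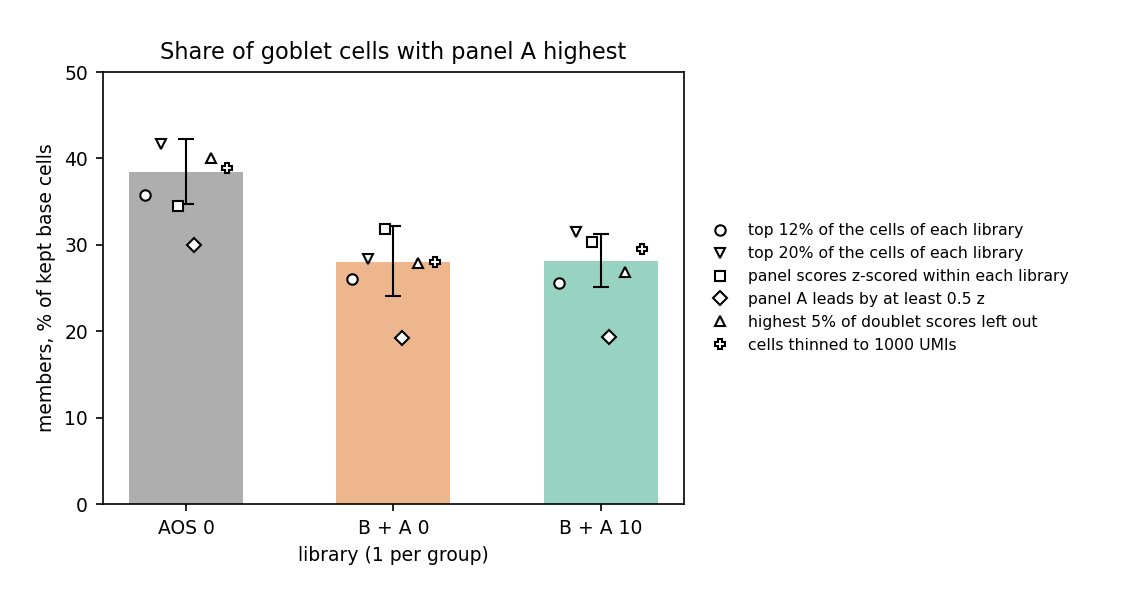
Bars give members as a percent of the kept base cells in each library with the exact 95% binomial interval, and open symbols give the same share under 6 other ways of choosing the cells. The bars stood at 38.4%, 28% and 28.1% from left to right, and with standardization within each library (open squares) the 3 values lay between 30.3% and 34.5%.

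By the scores that chose the members, panel B was the next highest panel in 439 of the 619 cells (70.9%), and panel A led by less than 0.5 z in 171 (27.6%). A cut on continuous scores leaves small leads at its border by construction. These values therefore describe the choice and do not test it. At the edge of the choice the last member had a lead of 0.0023 z and the first cell outside it had -0.0016 z. The last cell inside the base had a summed value of 27.8, 30.2 and 28.7 against 27.7, 30.2 and 28.7 for the next cell. The kept cell nearest the mitosis limit stood at 19.9 UMIs per 10000 against 20 for the nearest dropped cell, and the corresponding defensin values were 1470 and 1510.

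The cells answered to their goblet label. With every cell thinned to 1000 UMIs, which all cells reached, Muc2, which was no part of the rule, was found in 98.5% of members against 15.7% of a reference of 2003 enterocyte-rich cells outside the base. The median depth before thinning was 5866 UMIs in members and 4024 in that reference. The word crypt could be checked only by RNA, since position was not measured. The 20 stem cell genes summed to 435 to 494 UPM (UMIs per 1000000 UMIs of that group of cells) in members, 376 to 430 in panel B cells, 240 to 333 in panel C cells, 174 to 219 in the enterocyte reference and 1400 to 1470 in cells outside the base. Most of the members' sum came from Slc12a2 and Prom1. Of the genes that define crypt base stem cells, Lgr5 was found in 0 of 619 thinned members and, at that depth, in only 0.95% of cells outside the base, and Olfm4 was in 3.72% of members against 24.8% of cells outside the base and 5.49% of the enterocyte reference. Krt20, a keratin of the villus, stood at 403, 373 and 346 UPM in members, near the 391, 392 and 324 of panel B cells and under the 859, 688 and 628 of panel C cells. The summed level of 18 S phase genes was 173 to 190 UPM in members, 126 to 159 in panel B cells, 68.8 to 94.9 in panel C cells and 683 to 723 in cells outside the base. The members thus held less Krt20 RNA than panel C cells and about as much as panel B cells. As a share of all UMIs, their stem cell sum lay between that of other goblet cells and that of cells outside the base. The 3 stem cell genes with enough UMIs had a median log2 ratio over other goblet cells of 0.75, 0.37 and 0.35. With totals that left out the 6 base genes it was 0.46, 0.07 and 0.06. The sums were not recomputed with those totals.

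Markers of enteroendocrine, tuft and enterocyte cells were low but not absent. The 13 enteroendocrine genes summed to 798 to 1000 UPM in members against 678 to 1180 in panel B and C cells and 1750 to 2280 in cells outside the base. Most of that sum was Sct, the secretin gene, with 594 to 807, and Chga and Chgb, which define enteroendocrine cells, stood at 3.29 to 8.83 and 1.1 to 2.19. The 9 tuft cell genes in the table summed to 1.1 to 6.57, with Dclk1 at 0. The 12 enterocyte genes summed to 5420 to 8560 against 102000 to 122000 in the enterocyte reference. Paneth cell genes were not low against that reference. The 6 of them summed to 3570 to 5200 UPM in members, 3850 to 4470 in other goblet cells and 518 to 1300 in the reference. In the defensin base cells that were dropped they summed to 11900 to 18100.

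Ccl9, which chose the cells, stood at 505, 488 and 414 UPM in members. Panel B cells had 108, 112 and 80.2, and panel C cells 46.3, 37.1 and 41.9. The gene lies at chr11:83572917-83578636 (GRCm38.p6). After thinning, Ccl9 was found in 28.4% of members (24.9 to 32.2), 6.02% of panel B cells, 3.69% of panel C cells and 0.699% of the enterocyte reference.

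Reg4 (chr3:98222138-98236748) varied most of the 3 panel A genes between libraries, with 1950, 1460 and 932 UPM in members, highest with the vehicle and lowest with busulfan and AOS. Panel B cells had 543, 266 and 323. Within a library the members were also uneven: the median cell of AOS 0 had 8.15 Reg4 UMIs per 10000 and the highest had 161, and in B + A 10 these were 2.82 and 93.1. After thinning, Reg4 was found in 55.7% (49.2 to 62), 46.4% (38 to 55) and 36.1% (29.9 to 42.6) of members, against 2.01%, 3.34% and 2.24% of the enterocyte reference.

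Fkbp11 (chr15:98724368-98728198) stood at 368, 407 and 302 UPM in members, against 145, 169 and 125 in panel B cells and 53.3, 39.5 and 23.7 in panel C cells. Not every member held all 3 genes of its panel. Before thinning, 436 members (70.4%) had a Ccl9 UMI, 461 (74.5%) a Reg4 UMI, 322 (52.0%) both, 254 (41.0%) all 3 genes and 11 none. Both Ccl9 and Reg4 were found in 66.3%, 55.7% and 34.8% of members, in the order of the median depths given above.

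Pdia5 and Hpd had no part in the rule, yet come from the same cells, so their values describe the choice and do not test it. Pdia5 (chr16:35397308-35490919) stood at 223, 174 and 149 UPM in members, 85.9, 82.0 and 62.0 in panel B cells and 21.8, 17.7 and 17.4 in panel C cells. Hpd (chr5:123171807-123182723) stood at 126, 91.6 and 80.0 in members against 80.9, 74.1 and 79.2 in panel B cells and 12.2, 11.3 and 15.0 in panel C cells. Hpd therefore set members and panel B cells apart from panel C cells more than from each other, and in B + A 10 members and panel B cells stood side by side. Agr2, a disulfide isomerase needed for mucin and part of the base, stood at 29900, 30900 and 22000 in members against 16600, 16600 and 14100 in panel B cells and 10500, 9750 and 8220 in panel C cells.

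**Figure D2:**
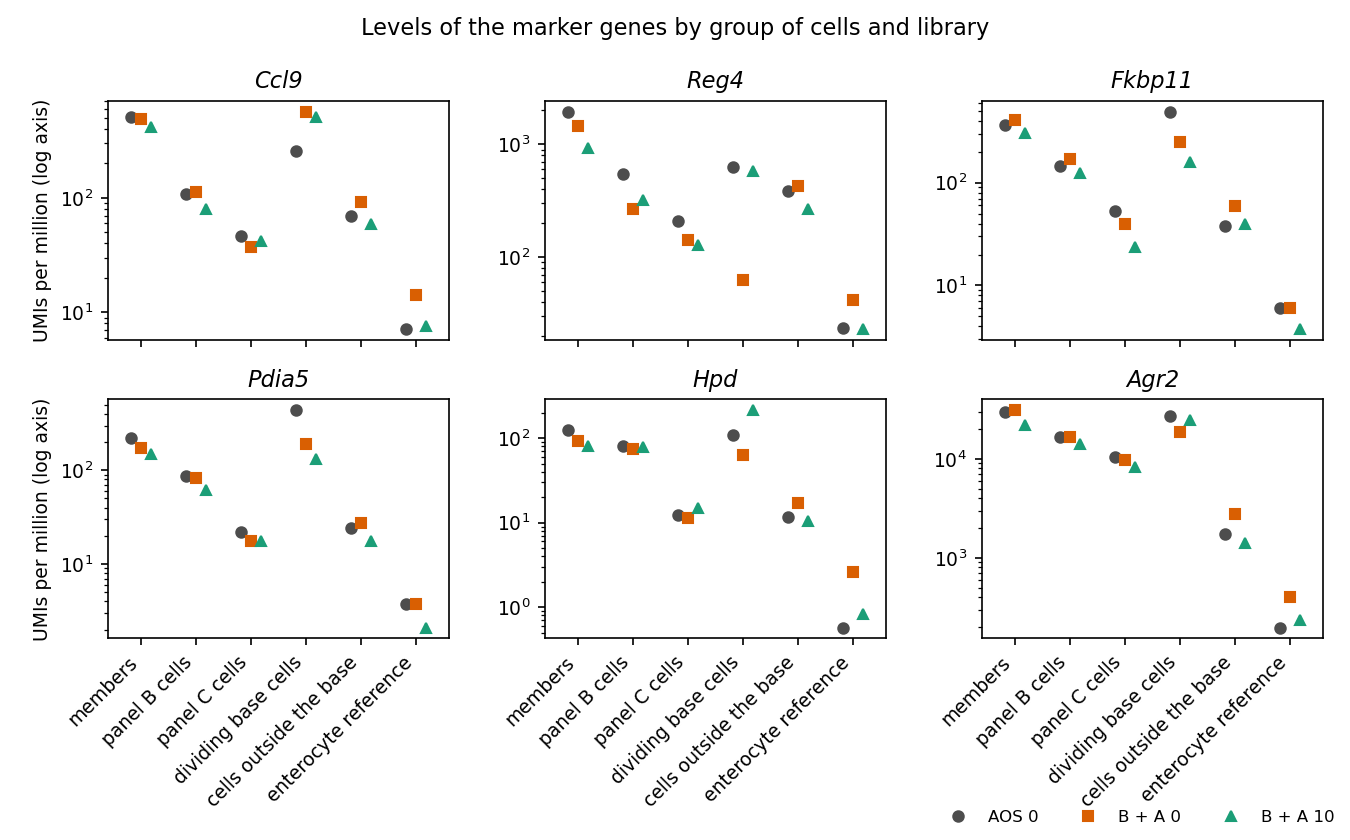
Each point is the level of a gene in UPM (log axis) in 1 group of cells of 1 library, with the libraries told apart by symbol. Ccl9, Reg4, Fkbp11, Pdia5 and Agr2 lay higher in members than in panel B cells and higher there than in panel C cells in all 3 libraries, and the dividing base cells are only 8, 2 and 7 cells.

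The same genes were not confined to the members. Members held 30.5%, 16.2% and 22.3% of the Ccl9 UMIs of their library, while cells outside the base held 62.3%, 77.5% and 68.8%. For Reg4 the members held 23.1%, 11.5% and 12.7%, and cells outside the base held 68.9%, 84.3% and 78.7%.

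Members carried less RNA of the base genes, which are also part of the rule, than other goblet cells. Together the 6 genes took 23.2%, 26.4% and 26.1% of the UMIs of members, against 30.5%, 32.9% and 32.9% in panel B cells and 43.1%, 46.7% and 44.1% in panel C cells. Tff3, a trefoil peptide, stood at 81300, 100000 and 105000 UPM in members and 142000, 172000 and 169000 in other goblet cells. Zg16, a lectin of the mucus layer, stood at 69800, 75900 and 70900 against 152000, 158000 and 145000. Clca1, a secreted mucus protease, stood at 2500, 2760 and 2710 against 7360, 6910 and 5980. Muc2 itself stood at 7990, 7870 and 7540 against 12500, 11800 and 11400, a log2 ratio of -0.65, -0.58 and -0.59. Of 18 goblet mucus genes, 10 had a ratio under 1 in every library and 6 above 1, where 15.3% and 61.8% of all 2477 genes with enough UMIs did (at least 100 in members plus other goblet cells in every library), and with totals that left out the base genes these were 13 and 3. Of the 18, 8 were in the rule. Of the 10 outside it, 6 were under 1 and 3 above 1.

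Because the mucus genes take so many UMIs, their lower share lifts every other gene in members. The median log2 ratio of members over other goblet cells was 0.32, 0.33 and 0.31 over these 2477 genes. With totals that left out the 6 base genes it was 0.04, 0.02 and 0.02. By the first scale 54 genes (2.18%) were at least 2-fold higher in members in every library and 21 (0.848%) at least 2-fold lower, so that 72.0% of the calls were higher. By the second scale 5 genes (0.202%) were higher and 39 (1.57%) lower, so that 11.4% were higher. The 5 were Reg4, Ccl9, Fkbp11, Pdia5 and Wbp5, of which only Pdia5 and Wbp5 lay outside the rule. All 21 of the lower genes of the first scale were among the 39. Of the 54, 4 belonged to the rule and 50 did not.

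Against panel B cells alone only 4 genes (0.161%) were 2-fold higher in members in every library and 3 (0.121%) lower, whereas against panel C cells alone 304 (12.3%) were higher and 37 (1.49%) lower. The 4 were Reg4, Ccl9, Fkbp11 and Pdia5. Since Reg4, Ccl9 and Fkbp11 chose the members, only Pdia5 among them lay outside the rule. The genes lower than both panels taken separately were Ttyh1, a tweety family membrane protein, and Clps, colipase. A strict order, members above panel B cells above panel C cells in every library, held for 935 genes (37.7%), and the reverse order for 100. Over all 2477 genes the median log2 ratio was 0.26, 0.21 and 0.24 over panel B cells and 0.41, 0.45 and 0.37 over panel C cells, so the distance to panel B cells was the smaller one.

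Outside the rule, the gene with the highest ratio was Pdia5, at 4.28-fold, 3.74-fold and 4.10-fold over other goblet cells. Wbp5 followed with 388, 359 and 297 UPM in members against 152, 136 and 115. Slc35a1, the transporter that brings activated sialic acid into the Golgi, stood at 146, 148 and 129 against 53.7, 55 and 55. Sdf2l1, a partner of ER chaperones, stood at 305, 364 and 352 against 128, 152 and 149. Pdia6, another disulfide isomerase, stood at 861, 878 and 639 against 368, 311 and 279. Creld2, a protein made under ER stress, stood at 159, 188 and 203 against 58.1, 79.0 and 92.7. In these 6 genes, which were chosen for their ratios, the values of members lay above those of other goblet cells across all libraries, as they did in 50.2% of all genes.

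The other genes among the highest 20 included the ribosomal proteins Rpl3 and Rps2, the initiation factor subunit Eif3m, the mitochondrial ribosomal protein Mrps28, the translocon gene Ssr2, the chaperonin subunit Cct3, the isomerase Ppia, the nucleolar Npm3, the chromatin protein Hmgn2, the mitochondrial enzyme Idh2, and Tmem97, C2cd4b and LOC105244208. Their log2 ratios lay between 1.08 and 1.77. Cells outside the base had more RNA of many of these than members did: Rps2 stood at 2040, 1650 and 1390 UPM in members, 841, 640 and 600 in other goblet cells and 3240, 2800 and 2560 outside the base. Near-identical copies of ribosomal protein genes and of Ppia may share tags, so their levels are less certain.

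The lowest ratios belonged to Ttyh1, with 6.98, 6.62 and 5.48 UPM in members against 54.4, 49.3 and 60.9 in other goblet cells, and to Clps, with 68.3, 107 and 128 against 369, 534 and 578. Cldn4, a tight junction protein, stood at 28.4, 18.8 and 24.1 against 125, 83.4 and 94.1. Mxd1, a repressor of Myc target genes that is on in cells that stop dividing, stood at 42.9, 40.8 and 80.0 against 221, 209 and 257. Saa1, Dusp6, Sptssb, Odf2l, 2010109I03Rik and Gm3776 completed the lowest 10, with log2 ratios between -3.06 and -1.17. The tags of Gm3776 may be shared with near-identical glutathione transferase genes.

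**Figure D3:**
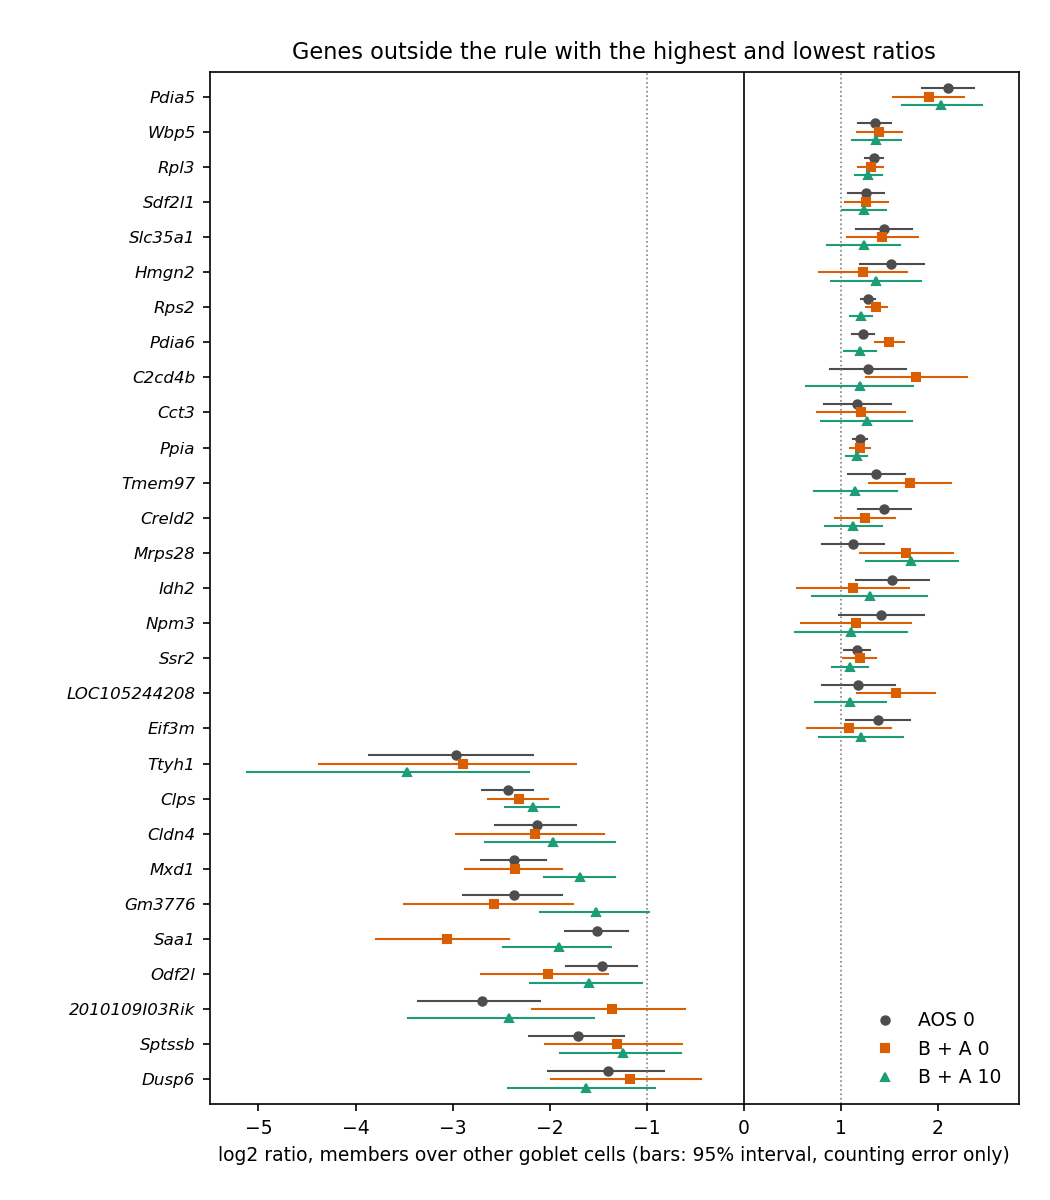
Points give the log2 ratio of members over other goblet cells in each library for the 19 highest and 10 lowest genes outside the rule, with 95% intervals for counting error only and dotted lines at 2-fold. Pdia5 lay apart at 1.90 to 2.10 and Ttyh1 at -3.47 to -2.90.

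RNA for protein import into the ER was higher in members as a group. Of 20 import genes with enough UMIs (of 23 in the table), 20 had a ratio above 1 in every library on the first scale and 19 on the scale without the base genes. Of all genes, 61.8% and 39.2% did. Their median log2 ratio was 0.71, 0.77 and 0.65, and 0.42, 0.46 and 0.37 without the base genes. Sec61b, a subunit of the channel through which new proteins enter the ER, stood at 1370, 1580 and 1380 UPM in members. Its log2 ratios were 1.00, 1.17 and 0.94. Only Ssr2 and Srp19, a signal recognition particle protein, were 2-fold higher in every library. The import sum was 7860 to 8660 UPM in members and much the same, 7950 to 8280, in the 17 dividing base cells that the rule dropped.

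The N-glycosylation genes behaved alike. All 21 genes with enough UMIs (of 22) had a ratio above 1 in every library, and 19 did without the base genes, beside 61.8% and 39.2% of all genes. The median log2 ratio was 0.71, 0.80 and 0.77. Calr, the chaperone calreticulin, stood at 1360, 1400 and 1330 UPM in members. Ddost, a subunit of the enzyme that attaches the sugar, was the 1 gene at least 2-fold higher in every library, at 413, 364 and 300 with log2 ratios of 1.17, 1.12 and 1.02.

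Of 25 ER folding genes with enough UMIs (of 32), 22 had a ratio above 1 in every library and Ero1l had one below 1. Without the base genes these were 21 and 1. Of all genes, 61.8% were above 1, and 39.2% without the base genes. The median log2 ratio was 0.80, 0.90 and 0.66. Pdia5, Pdia6, Creld2, Sdf2l1 and Manf were 2-fold higher in every library. Manf, a secreted ER stress factor, stood at 872, 949 and 844 UPM. Hspa5, the main ER chaperone (BiP), stood at 880, 1090 and 918 with log2 ratios of 0.86, 0.96 and 0.79. Hsp90b1, its partner of the Hsp90 family, stood at 905, 830 and 665 with 0.96, 1.11 and 0.92. The ER folding sum was 10100 to 11700 UPM in members, 7820 to 8020 in panel B cells, 4880 to 5640 in panel C cells and 4750 to 4830 outside the base. In the 17 dividing base cells that the rule dropped it was 11600 to 12400, so the high sum was not particular to members.

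Several of these folding genes are classic targets of the transcription factors ATF6 and XBP1 through the ER stress response element, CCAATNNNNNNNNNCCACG. That motif was searched on both strands in RefSeq promoter windows of GRCm38.p6, 250 bases before to 50 after the start, which were at hand for 28 of the 32 ER folding genes. It was in 6 of the 28 (21.4%), in 2 of 19 N-glycosylation genes and 2 of 21 unfolded protein response genes, in 0 of 17 import genes and 0 of 28 ER to Golgi genes, against 37 of 27025 genes (0.137%) and 10 of the 1949 genes with both a window and enough UMIs (0.513%). The sites in ER folding and N-glycosylation genes with enough UMIs are shown. Those in unfolded protein response genes are not, although that list too lay above the median of all genes. Syvn1, an unfolded protein response gene with a site that is not shown, had log2 ratios of -0.10, 0.91 and 0.40. Capitals mark the fixed bases of the motif, which read in reverse complement where the motif lies on the other strand, and each line runs 5′ to 3′ along the gene's strand with 5 flanking bases.
Hspa5 (chr2:34772020-34772048, + strand): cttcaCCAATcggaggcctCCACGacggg
Hsp90b1, far site (chr10:86705633-86705661, - strand): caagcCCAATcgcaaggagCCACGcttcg
Hsp90b1, near site (chr10:86705528-86705556, - strand): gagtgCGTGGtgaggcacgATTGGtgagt
Pdia6 (chr12:17266486-17266514, + strand): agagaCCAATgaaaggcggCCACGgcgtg
Creld2 (chr15:88819515-88819543, + strand): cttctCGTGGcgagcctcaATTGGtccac
Dnajc3 (chr14:118937822-118937850, + strand): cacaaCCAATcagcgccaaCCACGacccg
Calr (chr8:84847070-84847098, - strand): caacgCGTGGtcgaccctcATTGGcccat
Canx (chr11:50325795-50325823, - strand): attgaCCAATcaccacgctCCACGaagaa
The log2 ratios of these 7 genes were lowest in Canx, at 0.32 in B + A 0, where the median of all genes was 0.33, and highest in Pdia6, at 1.499 in the same library. Reg4, Ccl9, Fkbp11, Pdia5, Hpd and Agr2 had no match in their windows, which says only that these letters are not there. A match is a description of sequence and not of binding.

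The sensors and regulators of the unfolded protein response were less uniform. Of 16 genes with enough UMIs (of 25), 11 had a ratio above 1 in every library and Edem3 had one below 1, and without the base genes these were 8 and 2. That was near the share of all genes, of which 61.8% were above 1, and 39.2% without the base genes. Xbp1, the main transcription factor of the response, stood at 189, 193 and 172 UPM with log2 ratios of 0.25, 0.30 and 0.28, under the median of all genes. Creb3l4, a membrane-bound transcription factor of the same kind, was 2-fold higher in every library, at 118, 85.0 and 73.4, and the related Creb3l1 stood at 149, 125 and 119 with 0.92, 0.93 and 0.77. Ddit3, a gene of prolonged ER stress, reached only 15.4 to 21.9 UPM.

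Genes of transport from the ER to the Golgi followed at a shorter distance. Of 31 (of 34), 28 had a ratio above 1 in every library and Sec23a had one below 1, and without the base genes these were 20 and 4. Of all genes, 61.8% were above 1, and 39.2% without the base genes. The median log2 ratio was 0.48, 0.52 and 0.50. Lman1, a cargo receptor, was the 1 gene at least 2-fold higher in every library, at 171, 211 and 169 UPM. Kdelr2, a receptor that returns ER proteins, stood at 580, 592 and 606 with log2 ratios of 0.77, 0.72 and 0.61.

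Farther along the secretory route the pattern ended. Of 20 mucin glycosylation genes (of 31), 13 had a ratio above 1 in every library and 2 below 1, but without the base genes 7 were above and 8 below, so no direction held for the group. Gcnt3, which branches the sugar chains of mucin, stood at 301, 312 and 331 UPM with log2 ratios of -0.26, -0.25 and -0.30. Of 10 granule release genes (of 14), 2 were above 1 in every library and 6 below 1 (7 without the base genes). Of all genes, 61.8% were above 1 and 15.3% below 1. Rab27a, a Rab protein of secretory granules, stood at 58.3, 51.9 and 73.4 with -0.76, -0.88 and -0.52.

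Cytosolic ribosomal proteins had the highest median of the lists with 10 or more genes with enough UMIs. All 75 genes with enough UMIs (of 78) had a ratio above 1 in every library on both scales, with a median log2 ratio of 1.00, 1.00 and 0.93, and of 0.71, 0.69 and 0.65 without the base genes. They took 11.6%, 11.4% and 11.3% of the UMIs of members, 8.60%, 8.17% and 8.91% in panel B cells, 3.62%, 3.91% and 4.07% in panel C cells and 14.5% to 15.5% outside the base. In the 17 dividing base cells they took 12.4%, 11.2% and 14.1%. Among 70 oxidative phosphorylation genes (of 76), 69 had a ratio above 1 in every library and 63 did without the base genes, beside 61.8% and 39.2% of all genes. Their median log2 ratio was 0.56, 0.60 and 0.54. Members also held RNA of more genes: at 1000 UMIs the median was 497.5, 484 and 484 genes per cell against 417.5, 421 and 417 in panel B cells and 346.5, 344 and 362 in panel C cells. The base genes took more of the UMIs of panel B and C cells, which leaves fewer for other genes. The counts of genes were not recomputed without them.

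**Figure D4:**
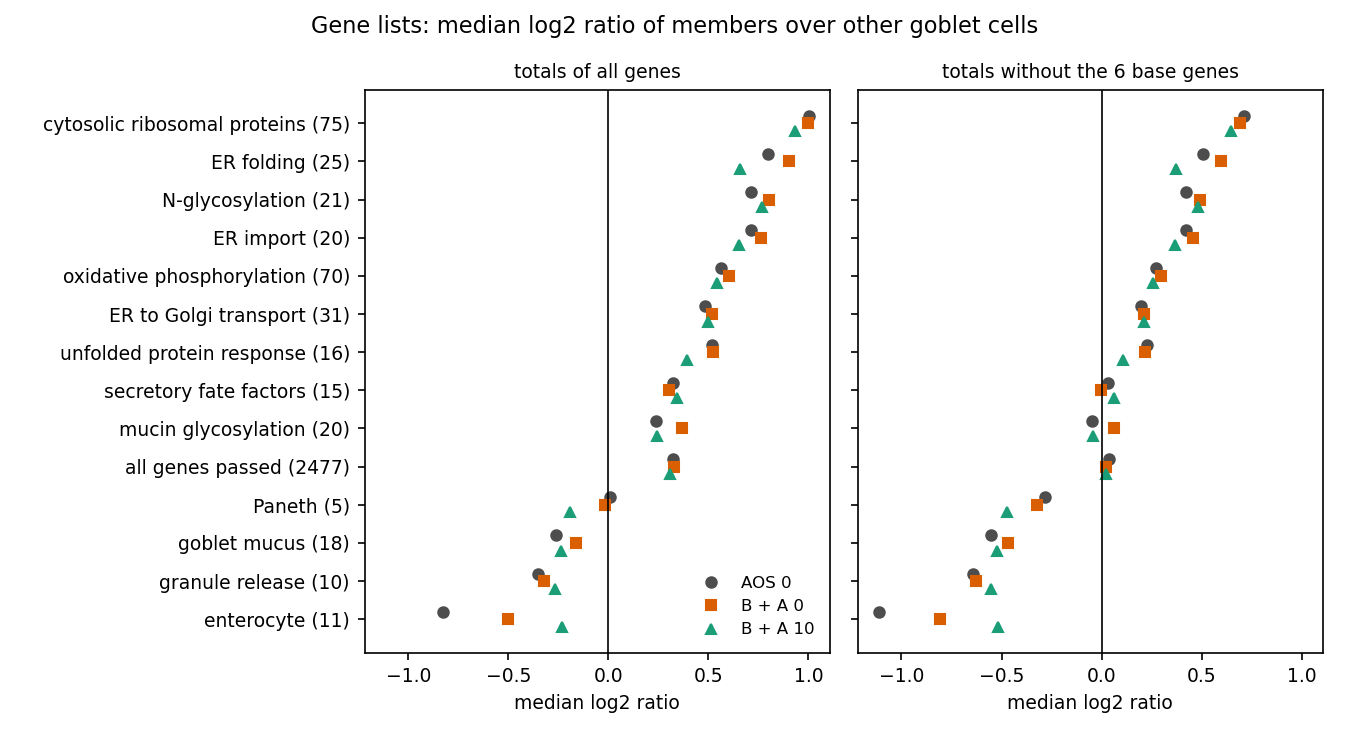
Points give the median log2 ratio of members over other goblet cells for 13 gene lists and for all genes, by library, with totals of all genes on the left and totals without the 6 base genes on the right; the number of genes with enough UMIs is in parentheses. Ribosomal proteins and the ER lists lay right of all genes in both, and goblet mucus, granule release and enterocyte genes lay left of 0 in both.

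Fate factors of secretory cells differed little. Of 15 (of 27), 10 had a ratio above 1 in every library and 1 below 1, but 7 and 7 without the base genes. Of all genes, 61.8% were above 1 and 15.3% below 1. Atoh1 stood at 207, 199 and 162 UPM in members with log2 ratios of 0.15, 0.23 and -0.23, and Spdef, which drives goblet maturation, at 145, 120 and 116 with 0.74, 0.40 and 0.41. Klf4, a factor of mature goblet cells, stood at 293, 291 and 261 with -0.57, -0.46 and -0.58. Among 4 chemokine genes with enough UMIs (of 10), Ccl9 alone was 2-fold higher, and as a gene of the rule it was chosen to be high. Ccl6, which lies in the same gene family, stood at 3900, 4430 and 4200 with -0.46, -0.30 and -0.12. Pcbd1, the other tyrosine pathway gene with enough UMIs besides Hpd, stood at 189, 156 and 135 with 0.86, 0.66 and 0.77.

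Some markers of the deep crypt were low yet had more UMIs in members than in panel C cells. Kit, a receptor of deep crypt secretory cells, stood at 25.9, 19.9 and 32.9 UPM in members against 5.14, 7.25 and 10.3 in panel C cells, and Sox9, a crypt transcription factor, at 35.9, 37.5 and 46.0 against 5.14, 8.06 and 10.3. In panel B cells Sox9 stood at 28.9, 22.7 and 32.1, and after thinning it was found in 2.91% of members, 3.54% of panel B cells and 0.399% of the enterocyte reference. Both were below the UMI minimum. After thinning, Kit was found in 1.94% of members and 1.42% of panel B cells, with intervals that overlapped, and in 0.0499% of the enterocyte reference. Dll1, a Notch ligand of early secretory cells, stood at 72.3, 62.9 and 47.1 with log2 ratios of 0.80, 1.10 and 0.61. Slc12a2, an ion carrier of the crypt, stood at 163, 140 and 148 with 0.93, 0.65 and 1.17. Few genes of these lists had enough UMIs, and 1 of the 4 deep crypt secretory genes that did belonged to the rule. A ratio above 1 in every library was held by 2 of 3 Notch ligand and receptor genes, 2 of 3 stem cell genes and 2 of 4 deep crypt secretory genes. It was also held by 1 of 1 mitosis gene outside the rule and 2 of 4 p53 target genes. For immediate early and heat shock genes it was 3 of 6, and for villus top genes 0 of 2, beside 61.8% of all genes. A ratio below 1 in every library was held by 1 Notch gene, 2 deep crypt secretory genes and 1 p53 target gene. The same held for 2 immediate early and heat shock genes and 2 villus top genes, beside 15.3% of all genes.

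The question of the treatment was how busulfan, and AOS after busulfan, went with RNA levels in these cells. Between B + A 0 and AOS 0, 2827 genes had at least 100 UMIs in the members of the 2 libraries together, and 42 (1.49%) were at least 1.5-fold higher in B + A 0 and 139 (4.92%) at least 1.5-fold lower. Between B + A 10 and B + A 0, 67 of 1825 genes (3.67%) were at least 1.5-fold higher and 32 (1.75%) lower. Both comparisons share the B + A 0 library, so a gene that was low there by any cause is higher in the second.

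Of Ccl9, Reg4, Fkbp11, Pdia5, Hpd and Agr2, Reg4 differed most between B + A 10 and each other library, while Hpd had the lowest ratio in B + A 0 over AOS 0, at -0.46. Ccl9, Reg4 and Fkbp11 chose the members and Agr2 was part of the base. The ratios of these genes between libraries therefore also carry the choice of cells, and its part in them was not tested. The log2 ratio of Reg4 was -0.42 (-0.51 to -0.33) in B + A 0 over AOS 0, -0.64 (-0.77 to -0.52) in B + A 10 over B + A 0 and -1.07 (-1.17 to -0.96) in B + A 10 over AOS 0, a level of 0.478 times that of AOS 0. In other goblet cells the same 3 ratios were -0.89, 0.10 and -0.79. Ccl9 was closer, with -0.05 (-0.22 to 0.11) and -0.24 (-0.44 to -0.04) in the first and second comparison. Agr2 had 0.05 and -0.49.

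Among genes with at least 300 UMIs the largest ratio belonged to Ifi27l2b, an interferon-inducible gene, which stood at 1310, 535 and 2580 UPM in members. The log2 ratio was -1.29 (-1.43 to -1.15) in the first comparison and 2.27 (2.13 to 2.41) in the second. It was found in 222 of 246, 114 of 140 and 233 of 233 members. Other goblet cells had ratios of -0.89 and 2.09 and cells outside the base -1.13 and 2.35, so cells other than the members held it too. Cd74, the chain that chaperones class II antigen receptors, stood at 280, 99.3 and 252, with log2 ratios of -1.49 (-1.83 to -1.17) and 1.34 (0.99 to 1.71). In cells outside the base Cd74 had -0.86 and 0.38.

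The other lowest genes in B + A 0 over AOS 0 were Dmbt1, a secreted scavenger receptor protein, with 182, 73.9 and 160 UPM, the class I gene H2-T23 with 282, 138 and 135, and Tm4sf20 with 130, 68.4 and 129. H2-T23 had like values in both busulfan libraries, while Dmbt1 and Tm4sf20 stood near the AOS 0 value in B + A 10. With the top 12% of cells as the base both lost the call in B + A 0 over AOS 0, at -0.07 for Dmbt1 and -0.18 for Tm4sf20, and Tm4sf20 also lost it, at -0.42, without the highest 5% of doublet scores. Among the highest, Gm1123 stood at 75.8, 223 and 157, and its ratio of 1.56 (1.25 to 1.87) was close to the 1.34 of other goblet cells. Apoc3, an apolipoprotein of enterocytes, stood at 69.3, 186 and 287.

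Ccl5 and Gzma, both genes of T cells, were the highest and the fifth. Ccl5 stood at 172, 558 and 733 UPM in members, with a log2 ratio of 1.70 (1.495 to 1.896) in B + A 0 over AOS 0, and Gzma at 113, 293 and 421 with 1.38 (1.12 to 1.64), which was 0.28 after thinning. The 8 T cell markers summed to 180, 487 and 738 in members, against 302, 593 and 504 in other goblet cells. No marker was at 0, and Cd3e stood at 4.98, 22.1 and 29.6. After thinning, 7.72%, 31.4% and 35.6% of members had a Ccl5 UMI against 8.50%, 29.9% and 37.3% of the enterocyte reference, so the 2 shares were close in every library. The part of T cell RNA in these ratios was not tested.

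Enterocyte genes stood higher in B + A 10. Of 9 enterocyte genes with enough UMIs in each comparison, 3 were at least 1.5-fold higher in B + A 0 over AOS 0 and 6 in B + A 10 over B + A 0, with median log2 ratios of 0.20 and 0.74, while the median over all genes was -0.10 and 0.00. Their sum in members was 5420, 6630 and 8560 UPM, and in cells outside the base 22500, 20600 and 25000. Fabp6, the ileal bile acid binding protein, stood at 1140, 814 and 2160 in members with a log2 ratio of 1.41 (1.28 to 1.53) in B + A 10 over B + A 0, whereas other goblet cells had 0.05. A single cell held 26.6% of the Fabp6 UMIs of B + A 10 members. With the top cell of each library left out the ratio was 1.38, but it was 0.32 with the top 12% of cells as the base, 0.10 with a lead of 0.5 z and 0.21 after thinning, all under 1.5-fold. Anpep and Spink1, an aminopeptidase and a trypsin inhibitor, had 1.22 (0.86 to 1.59) and 1.11 (0.96 to 1.26), and Spink1 had 0.56 with the top 12%. The part of enterocyte RNA in these values was not tested.

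Paneth cell genes stood lower in B + A 10. Of 5 Paneth genes with enough UMIs, 1 was at least 1.5-fold higher in B + A 0 over AOS 0 and 4 were at least 1.5-fold lower in B + A 10 over B + A 0, with a median log2 ratio of -0.99. Lyz1, lysozyme, stood at 597, 812 and 430 UPM in members, Ang4, an antimicrobial ribonuclease, at 121, 271 and 137, and Mmp7, which processes defensins, at 540, 381 and 183. Cells outside the base had larger ratios: -1.33 for Lyz1, -1.43 for Ang4 and -1.34 for Mmp7, against -0.92, -0.99 and -1.06 in members. Defa29 and Defa37, alpha-defensins with near-identical relatives and therefore uncertain, stood at 182, 484 and 320 and at 104, 246 and 145. Mptx1, a pentraxin of panel B with close relatives too, stood at 2020, 2080 and 1230, and its log2 ratio of -0.75 was -0.58 with z-scores within libraries and -0.14 with a lead of 0.5 z. The Paneth markers summed to 4590, 5200 and 3570 in members and 8700, 15500 and 5810 outside the base. Lyz1 was found in 26.8%, 48.6% and 31.8% of thinned members and 14.8%, 46.0% and 20.7% of the enterocyte reference, and the part of free RNA in the Paneth values was not tested.

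**Figure D5:**
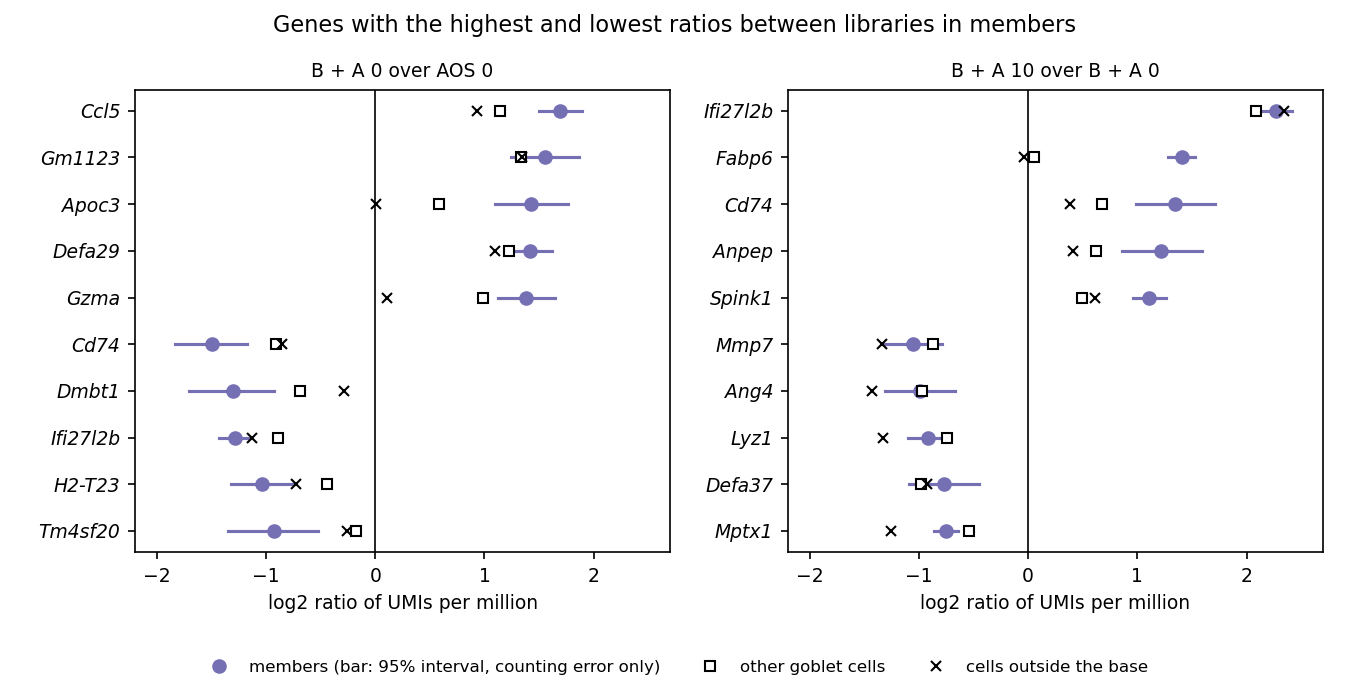
For the 5 highest and 5 lowest genes of each comparison in members, filled points give the log2 ratio in members with 95% intervals for counting error only, open squares the ratio in other goblet cells and crosses that in cells outside the base. Ifi27l2b lay near 2 in all 3 groups of cells, at 2.27 in members, and Fabp6 lay at 1.41 in members and 0.05 in other goblet cells.

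Unlike the enterocyte and Paneth genes above, few ribosomal protein and ER genes were past 1.5-fold between libraries, as for all genes. None of the 76 and 75 ribosomal protein genes tested in the comparisons was past 1.5-fold in either direction, nor were the import genes (22 and 19 tested) or the N-glycosylation genes (22 and 18), beside 1.49% to 4.92% of all genes. Of the ER folding genes, 1 of 26 was higher in B + A 0 over AOS 0, and 1 of 23 was lower in B + A 10 over B + A 0. Of 5 p53 target genes tested in B + A 0 over AOS 0, 0 were higher and 1 was lower.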

How the data were processed

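RNA of single small intestinal cells was counted in 3 libraries. Per the study's methods the authors used Cell Ranger 2.2.0 with the mm10 reference, removed cells with fewer than 200 genes and genes in fewer than 3 cells, and normalized in Seurat; they set a fixed number of cells per library, which B + A 10, with 5352 cells, exceeds, and why is not given in the sources used here; how doublets were treated is not given in the sources used here. The deposited table (13891 genes, 12653 cells) holds the natural log of 1 plus a cell's UMIs scaled to 10000. All 24333763 values above 0 gave whole UMIs (100%, within 0.01), and UMIs were summed by library and group of cells and scaled to UMIs per 1000000 (UPM). Library totals were 35258551, 26044381 and 23003083 UMIs.

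The planned design had no test, since each group was 1 library. Genes were counted past 2-fold in every library (members over other goblet cells, at least 100 UMIs) or past 1.5-fold (between libraries). Intervals of ratios and shares are exact binomial ones. A count of 0 was replaced by 3 UMIs in ratios. Named were the genes of the rule, Pdia5 and Hpd, the 20 highest and 10 lowest genes outside the rule, the 5 highest and 5 lowest of each comparison of libraries with at least 300 UMIs, and in each list up to 4 with the most UMIs and those past the fold; genes outside this (Kit, Sox9, Xbp1, Dll1 and others) were chosen for their role after their values were seen. Some genes that fall under this are not reported here. The members and all 26 gene lists were chosen with earlier results of these data known. Cell types were not taken from clusters. The enterocyte reference was the 16% of cells of each library with the highest summed enterocyte genes, less base cells. Scrublet's own threshold called 15 of 12653 cells, too few to trust, so doublets were left in, and the highest 5% of scores were left out as an alternative. Other alternatives were the base cut, z-scores within libraries, a lead of 0.5 z, thinning, per-cell means, other totals, UMI minimums and each library left out; totals without the base genes and the top cell left out were chosen after seeing the data. The counting of genes past a fold was tested on simulated data. Versions were Python 3.11.15, matplotlib 3.10.9, scanpy 1.11.5, numpy 2.4.6, pandas 2.3.3, anndata 0.12.19 and, for intervals, scipy 1.17.1.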

Additional observations from a re-analysis of the deposited data

How the results depend on the processing

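Counts past a fold depended on depth, on the minimum and on the cells chosen. Pdia5 and Hpd kept their direction. Ccl9, Reg4 and Fkbp11 did too, but the rule that chose the cells set their direction in advance. Of the recomputed values of named genes, 760 moved by no more than their counting interval and 170 moved further. Of those past 1.5-fold, 0 changed sign, whereas 11 values near 0 did (Klk1, Retnlb and Spink4). Members were 30%, 19.2% and 19.3% of the kept base where panel A led by 0.5 z, 34.5% in AOS 0 with z-scores within libraries, and 31.5% in B + A 10 with the top 20% as the base. Against other goblet cells (54 higher, 21 lower), the counts were 34 and 11 with the top 12%, 1 and 5 with cells thinned to 1000 UMIs, where only 478 genes reached the minimum, 4 and 2 over panels B and C separately, 5 and 39 without the base genes in the totals, 100 and 32 without the B + A 10 library, and 13 lower at 200 UMIs; 86 were higher with a lead of 0.5 z and 97 without ribosomal, mitochondrial and defensin genes in the totals. Leaving out AOS 0 gave 67 and 24, and leaving out B + A 0 gave 77 and 23. For B + A 0 over AOS 0 (42 higher, 139 lower) the counts were 9 and 13 after thinning, 134 and 431 at 50 UMIs and 22 and 31 at 200 UMIs, with 60 lower for the top 12% and 288 for the top 20%. For B + A 10 over B + A 0 (67 higher, 32 lower) they were 21 and 19 with the top 12%, 17 and 13 after thinning, 214 and 111 at 50 UMIs and 23 and 17 at 200 UMIs, with 114 higher for the top 20% and 44 without the highest 5% of doublet scores. Members chosen after thinning shared 419 of 630 cells with those reported. No paired analysis was possible because each group is 1 library.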

Other observations

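Outside the goblet base, 859 of 10630 cells (8.08%) had UMIs of both Ccl9 and Reg4: 262 with the vehicle (7.59%), 348 with busulfan (13%) and 249 with busulfan and AOS (5.54%). Their median depth was 9960 UMIs, and the base genes took a median of 642 UMIs per 10000 in them, against 2370 in the 322 members with both genes. Of these 859 cells, 63 were at or past the mitosis limit. Among the 17 dividing base cells that the rule dropped, 11 had both genes.

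A pair of genes was present in one library and nearly missing in the others, in members and in the whole library alike. Among genes with at least 50 UMIs in the members of 1 library and 0 in another, chosen after the values were seen, there were 2. St6galnac1, a sialyltransferase of mucin, had 68 UMIs in members of AOS 0 (33.9 UMIs per 1000000, UPM) and 0 in both busulfan libraries, which allows up to 3.31 and 3.29 UPM; over all cells it had 1507, 19 and 3 UMIs. Gm7849 had 0, 0 and 52 UMIs in members and 5, 15 and 19473 over all cells. Each library was a pool of other mice of an outbred stock, and whether genotype or treatment goes with these values cannot be told apart.

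Heat shock genes were uneven between libraries. Hspa8 stood at 347, 687 and 765 UPM in members, and Hspa1b, under the minimum, at 9.97, 34.2 and 65.7. The 14 immediate early and heat shock genes summed to 778, 1130 and 1340 in members and to 1040, 1510 and 1760 in cells outside the base.

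In the highest 5% of doublet scores were 55 members (8.89%) and 7.26% of other goblet cells.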
